A study of Mus musculus with 18 samples.

Results

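Peaks of 4 histone marks were examined in 4 stretches of the mouse genome that hold genes for interferon-inducible GTPases. The stretches were named by 6 genes, Iigp1, Ifi47, Tgtp1, Igtp, Irgm2 and Gbp2, and were set in build NCBIM37. The Iigp1 window ran from 60.35 to 60.57 Mb of chromosome 18, the Ifi47 and Tgtp1 window from 48.78 to 48.93 Mb of chromosome 11, the Igtp and Irgm2 window from 57.99 to 58.05 Mb of chromosome 11, and the Gbp2 window from 142.15 to 142.35 Mb of chromosome 3. Every peak that overlapped a window by at least 1 base was taken, which gave 107 of the 225177 peaks in the 8 lists. The windows were chosen by the position and score of H3K4me3 and H3Ac peaks in these same lists, some of the strongest peaks found in Cre cells only among them, so that their values are given as a description without a test. A window stands for the genes that name it and their neighbours. No annotation of NCBIM37 was used, and no single peak was assigned to a gene.

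The cells were mouse embryonic fibroblasts on a mixed B6;129 background in which the gene for the retinoblastoma tumour suppressor Rb is conditional. Cre cells were infected with Adeno-Cre, an adenovirus that delivers the recombinase which deletes it. GFP cells were infected with Adeno-GFP, so that both groups carried the conditional allele and both had met an adenovirus, and neither received the 4F construct used elsewhere in the series. Both were expanded for at most 3 passages before chromatin immunoprecipitation. Deletion of Rb and the fibroblast identity of the cells could not be checked from these lists. With 1 library for each mark in each group, the spread between replicates is unknown and no test was run.

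Interferon-inducible GTPases are among the genes most strongly switched on by interferons in mouse cells. The immunity-related GTPases and the guanylate-binding proteins collect on the membranes around intracellular pathogens such as Toxoplasma and help to break them open. Promoters of interferon-induced genes often hold the gamma-activated site (GAS) or the interferon-stimulated response element (ISRE), a sequence that interferon regulatory factors can bind. H3K4me3 and acetylated H3 (H3Ac) mark active promoters, H3K27me3 is the Polycomb mark of silent genes, and H3K9me3 is found in heterochromatin.

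The promoters of 5 members and of a close copy are shown because 4 of them carry these elements in a common layout, from which the other two differ. They come from RefSeq on build GRCm38.p6, which is not the build of the peaks, and no position was carried from one build to the other. Each is the 150 bases before the transcription start, 5′ to 3′ on the strand of the gene, with matches to the ISRE (GAAA, any 2 bases, GAAA) and the GAS (TTCNNNGAA) in capitals, searched on both strands. Igtp lies at chr11:58199406-58199555 and Irgm2 at chr11:58214827-58214976, both on the + strand. Tgtp1 lies at chr11:48992247-48992396 and its neighbouring copy Tgtp2 at chr11:49064213-49064362, both on the - strand. Gbp2 lies at chr3:142620513-142620662 and Ifi47 at chr11:49076437-49076586, both on the + strand.
Igtp: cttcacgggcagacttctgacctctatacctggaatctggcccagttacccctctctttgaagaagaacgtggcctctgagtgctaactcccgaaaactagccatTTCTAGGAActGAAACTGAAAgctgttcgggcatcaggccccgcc
Irgm2: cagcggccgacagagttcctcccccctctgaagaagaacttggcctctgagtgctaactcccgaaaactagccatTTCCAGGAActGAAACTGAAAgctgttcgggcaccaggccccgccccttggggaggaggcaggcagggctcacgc
Tgtp1: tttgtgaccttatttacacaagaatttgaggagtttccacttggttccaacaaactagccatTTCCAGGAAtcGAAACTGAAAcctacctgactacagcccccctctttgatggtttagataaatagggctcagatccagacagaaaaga
Tgtp2: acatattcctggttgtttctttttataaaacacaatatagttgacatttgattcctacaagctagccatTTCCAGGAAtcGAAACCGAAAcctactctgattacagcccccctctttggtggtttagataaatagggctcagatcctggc
Gbp2: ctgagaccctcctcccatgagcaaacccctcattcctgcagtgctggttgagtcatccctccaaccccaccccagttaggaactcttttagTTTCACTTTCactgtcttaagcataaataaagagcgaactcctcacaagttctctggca
Ifi47: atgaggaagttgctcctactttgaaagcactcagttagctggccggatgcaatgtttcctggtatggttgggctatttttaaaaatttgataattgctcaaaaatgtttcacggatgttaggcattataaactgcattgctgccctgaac

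In Igtp, Irgm2, Tgtp1 and Tgtp2 a GAS was followed by an ISRE whose start lay 11 bases after the start of the GAS. Over the 300 bases of each RefSeq promoter (250 before and 50 after the start), Igtp, Irgm2, Tgtp1 and Gbp2 among the 5 members matched by symbol held an ISRE, where 3.44% of all 32851 promoters did. Iigp1 was not matched. With a further C required after the ISRE, 2 of the 5, Tgtp1 and Gbp2, held it, where 0.819% of all promoters did. A GAS was found in Igtp, Irgm2 and Tgtp1, and in 8.30% of all promoters. Of 30 symbols listed for the 2 GTPase families, 16 were matched, and 13 of these held an ISRE and 8 a GAS. The joined pattern, a GAS, 2 further bases and an ISRE, was read off these promoters after they had been seen. It occurred in 5 of the 32851 promoters, those of Igtp, Irgm2, Tgtp1, Tgtp2 and Gm12185. Igtp and Irgm2 promoters were identical at 73.7% of aligned positions, and the Tgtp1 promoter was identical to that of Tgtp2 at 69.3%, to that of Gm12185 at 69.3% and to that of Igtp at 51.4%. The Ifi47 promoter held neither motif within this window, which says only that these letters are not there.

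H3K4me3 was more extensive in Cre cells in every one of the 4 windows. The Cre list held 18 H3K4me3 peaks in them and the GFP list 9, and these covered 50.6 kb in Cre cells and 16.6 kb in GFP cells, a ratio of 3.04. Over the whole lists the same ratio was 1.08. In bulk chromatin, fewer marked cells and less of the mark per cell cannot be told apart. Of the 18 Cre peaks, 10 had no overlapping GFP peak, which is 55.6%, where 12.6% of all Cre H3K4me3 peaks had none. Such peaks were among the values that chose the windows, so that nothing is read from this difference or from the ratio of covered length. In the other direction 1 of the 9 GFP peaks had no Cre counterpart, where 10.7% of all GFP peaks had none. The Iigp1 window held 5 of the 10 Cre-only peaks. Without it, 5 of 12 Cre peaks had no GFP counterpart and the ratio of covered length was 2.13.

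H3Ac went the same way with a smaller ratio. The Cre list held 30 H3Ac peaks in the windows and the GFP list 21, covering 68.1 kb in Cre cells and 45.0 kb in GFP cells, a ratio of 1.51. Without the Iigp1 window H3Ac covered 51.2 kb in Cre cells and 41.9 kb in GFP cells, a ratio of 1.22. Over the whole lists the Cre H3Ac peaks covered less than the GFP peaks, with a ratio of 0.847. Of the Cre peaks 12, or 40.0%, had no GFP counterpart, where 15.4% of the Cre list had none. Of the GFP peaks 3 had no Cre counterpart, or 14.3%, where 26.6% of the GFP list had none. H3Ac peaks were also among the values that chose the windows, so that nothing is read from these differences or from the ratios of covered length.

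**Figure D1:**
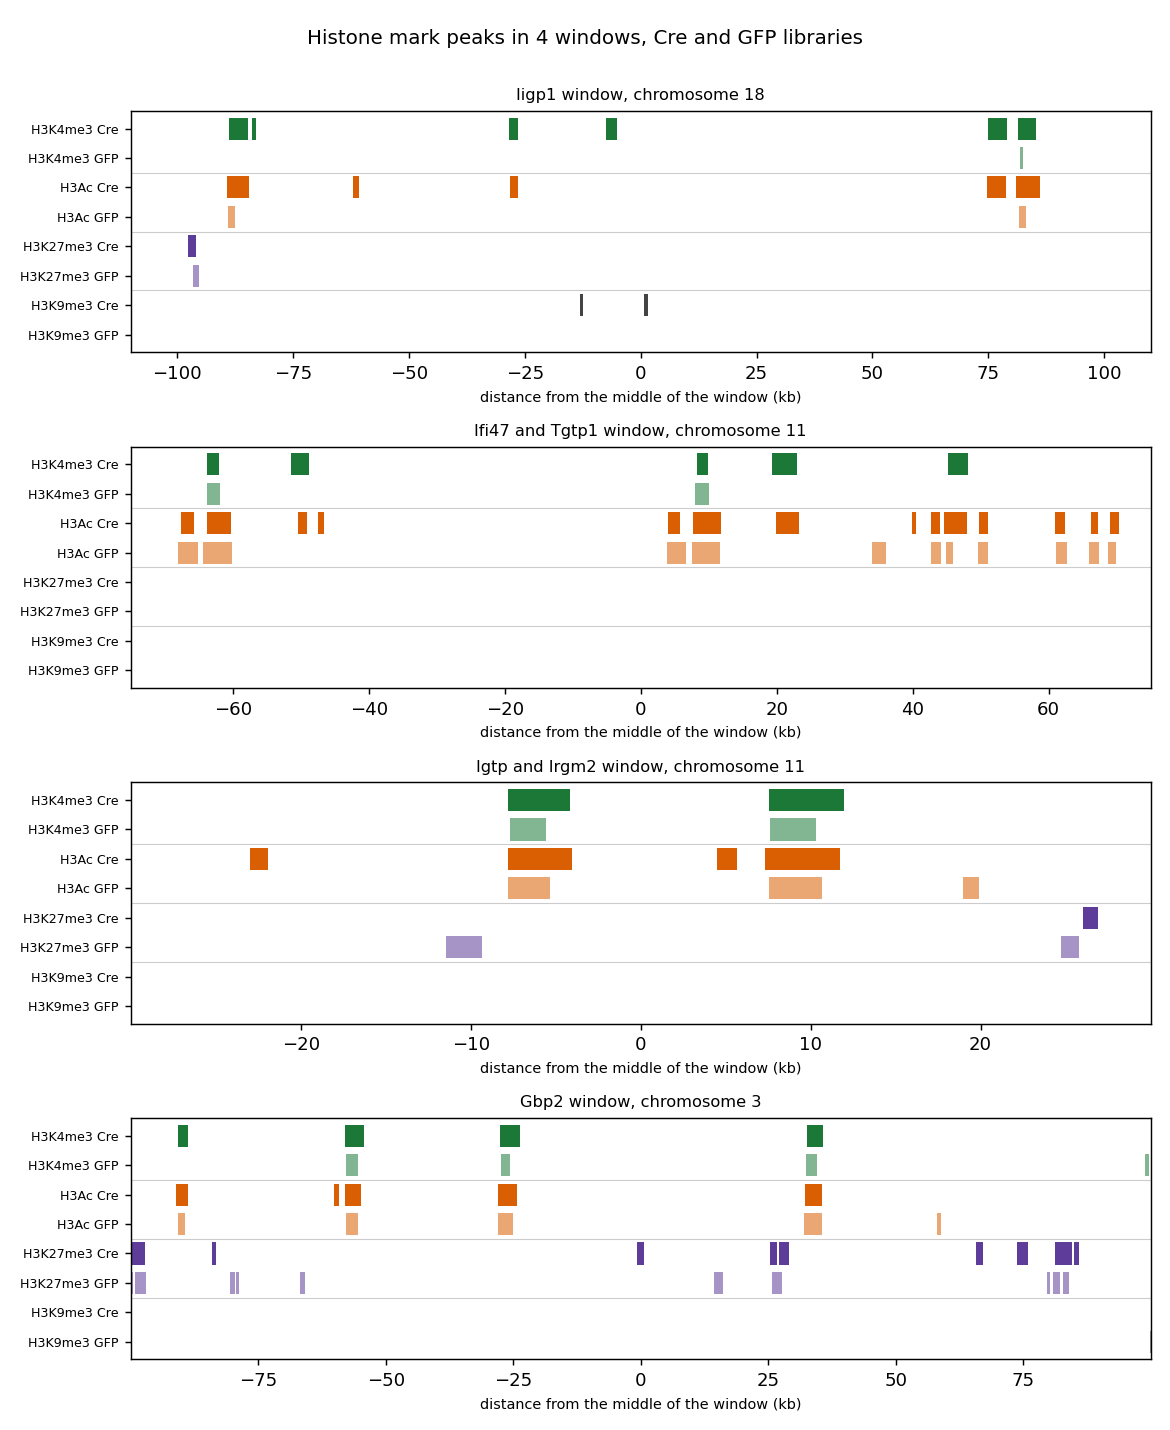
Positions of peaks of 4 marks in the Cre (dark) and GFP (pale) lists, with a panel for each window and the distance from the middle of the window in kb on the horizontal axis. The Iigp1 window holds 6 Cre and 1 GFP H3K4me3 peaks, and the Igtp and Irgm2 window holds 2 of each.

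**Figure D2:**
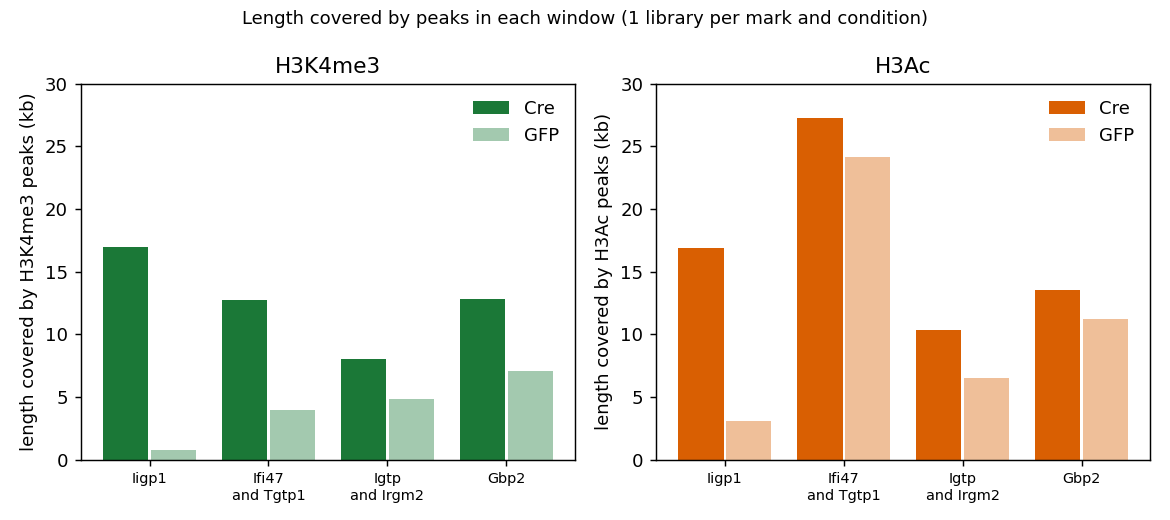
Length in kb covered by H3K4me3 and H3Ac peaks in each window, with Cre bars left of GFP bars and 1 library behind each bar, so that there are no error bars. For H3K4me3 the Cre bar is the higher one in all 4 windows, with 8.07 kb in Cre against 4.81 kb in GFP cells at Igtp and Irgm2, and 17.0 kb in Cre against 0.798 kb in GFP cells at Iigp1.

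The Iigp1 window showed the widest gap. Iigp1, also called Irga6, is an effector GTPase that coats the vacuole around Toxoplasma. In RefSeq gene order on GRCm38.p6 its neighbours on one side are F830016B08Rik, Gm4841 and Gm4951, relatives of it in the same family, and on the other side Smim3 and Dctn4. Of this window H3K4me3 covered 17.0 kb in Cre cells, against 0.798 kb in GFP cells, and H3Ac 16.9 kb in Cre cells, against 3.06 kb in GFP cells. The GFP list held a single H3K4me3 peak there.

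Of the 5 Cre-only H3K4me3 peaks in the Iigp1 window, 2 were among the strongest of their kind in the genome. Some of the strongest Cre-only peaks were among the values that chose the windows, so that ranks here and below are a description only. The Cre list gave a score of 3100 to the peak from 60371063 to 60375306 and to the peak from 60534854 to 60539022. The scores are the authors' own and were ranked only within a list. The value 3100 recurs, since 5743 Cre H3K4me3 peaks have exactly that score, and the highest score of the list was 3233. Of the 5955 Cre peaks that scored at least 3100, 4 had no GFP counterpart, or 0.0672%, and these 2 were among the 4. They were also the 3rd and 4th widest of the 2859 Cre-only H3K4me3 peaks, at 4244 and 4169 bases.

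Acetylation separated these 2 places. The first overlapped H3Ac in both lists, a Cre peak of 4636 bases with a score of 3100 and a GFP peak of 1514 bases with a score of 180.1. GFP cells therefore had an H3Ac peak there with no H3K4me3 peak past the authors' threshold. The second overlapped a Cre H3Ac peak of 4231 bases with a score of 1405 and no GFP peak of any mark. That H3Ac peak had the 3rd highest score and was the 2nd widest of the 6588 Cre-only H3Ac peaks.

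The next H3K4me3 peak along the chromosome was present in both lists. In Cre cells it ran from 60541453 to 60545387, was 3935 bases wide and scored 3100. In GFP cells it ran from 60541759 to 60542556, was 798 bases wide and scored 72.92. The Cre peak was 4.93 times as wide, a larger ratio than in 99.97% of the 17237 H3K4me3 pairs that overlapped one to one in the genome. The H3Ac peaks at the same place spanned 5045 bases in Cre and 1545 bases in GFP cells, with scores of 2833 and 169.3 in those lists. The remaining 3 Cre-only H3K4me3 peaks were weaker. The one from 60431686 to 60433435 scored 367.1 and overlapped 2 Cre-only H3Ac peaks. The one from 60452561 to 60454789 scored 253.8, and a small one from 60376221 to 60376881 scored 50.65, where the lowest score of the list was 50.02. Neither of the last 2 overlapped H3Ac. A further Cre-only H3Ac peak, from 60397914 to 60399155 with a score of 173.2, lay away from H3K4me3.

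**Figure D3:**
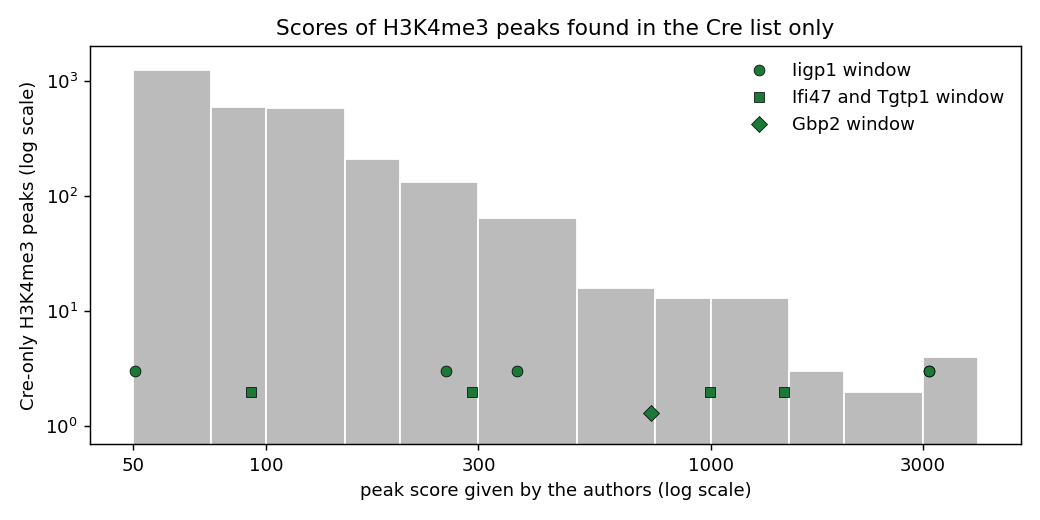
Number of Cre-only H3K4me3 peaks by the authors' score, both axes logarithmic, with the 10 peaks of the windows as symbols whose height has no meaning. The 2 Iigp1 peaks at 3100 coincide at the right, beyond nearly all of the 2859 Cre-only peaks.

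The Ifi47 and Tgtp1 window was divided between places marked in both lists and places marked in Cre cells only. Ifi47, also called Irgd, and Tgtp1, also called Irgb6, are GTPases of the immunity-related family, and Tgtp1 is an effector that loads onto pathogen vacuoles. In RefSeq order on GRCm38.p6 the genes run 9930111J21Rik1, Tgtp1, 9930111J21Rik2, Tgtp2, Ifi47, with the first 4 on the - strand and Ifi47 on the + strand. H3K4me3 covered 12.8 kb in Cre cells with 6 peaks, and 3.94 kb in GFP cells with 2 peaks. H3Ac covered 27.3 kb in Cre cells and 24.2 kb in GFP cells, a ratio of 1.13.

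The 2 H3K4me3 peaks that GFP cells had in this window were wider there than in Cre cells. The first spanned 1766 bases in Cre cells from 48791250 to 48793015 and 1829 bases in GFP cells. The second spanned 1714 bases in Cre cells from 48863236 to 48864949 and 2111 bases in GFP cells. Of the 4 H3Ac peaks at and beside these places, each was narrower in the Cre list, with ratios from 0.657 to 0.992. Over all 30364 H3Ac pairs that overlapped one to one the median ratio was 0.963, so that a narrower Cre peak is common.

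Beside the shared H3K4me3 peaks of this window stood 4 H3K4me3 peaks found in Cre cells only. The strongest, from 48874307 to 48878000, was 3694 bases wide and scored 1462, the 10th highest score and the 5th largest width among Cre-only H3K4me3 peaks. It overlapped a Cre-only H3Ac peak of 3244 bases with a score of 710.3, and no GFP peak. The next, from 48900161 to 48903155, scored 996.9. H3Ac there spanned 2307 bases with a score of 741.5 in Cre cells and 997 bases with a score of 91.45 in GFP cells, and a second, Cre-only H3Ac peak with a score of 194.3 also lay under the H3K4me3 peak. The other 2 peaks adjoined each other, one from 48803558 to 48804685 that scored 92.31 and one from 48804689 to 48806159 that scored 289.7, and both overlapped a Cre-only H3Ac peak with a score of 173.6.

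The layout of this window was repeated along the chromosome. The 2 H3K4me3 peaks shared by both lists had centres 72.0 kb apart in Cre cells and 71.9 kb apart in GFP cells. The H3Ac peaks that overlapped them were 71.8 kb apart in both lists, and the Cre-only H3Ac peaks at 48804585 and 48874976 were 71.3 kb apart. Genes with similar sequence recur in the same order here. The promoters of 9930111J21Rik1 and 9930111J21Rik2 were identical at 89.3% of aligned positions and those of Tgtp1 and Tgtp2 at 69.3%. The sources used here do not say how reads that match more than 1 place were treated, so that values of the copies are uncertain and their part in the result was not tested. Single H3Ac peaks without a counterpart scored 66.6 and 55.54 in Cre cells, from 48807569 and from 48894852, and 4141 and 5537 of the 6588 Cre-only H3Ac peaks scored at least as high. In GFP cells one from 48889026 to 48891074 scored 206.9, and 1206 of the 12984 GFP-only H3Ac peaks scored at least as high.

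The Igtp and Irgm2 window carried strong marks in both conditions. Igtp, also called Irgm3, and Irgm2 are regulatory members of the family that sit on the cell's own membranes and hold effector GTPases inactive. In RefSeq order on GRCm38.p6 the genes run Gm12250, another of the listed symbols, Igtp, Irgm2, all on the + strand. The window held 2 H3K4me3 peaks in each list. The first spanned 3646 bases from 58012183 to 58015828 in Cre cells and 2089 bases from 58012324 to 58014412 in GFP cells, with a score of 3100 in both. The second ran from 58027567 to 58031990 in Cre cells, 4424 bases that scored 3100, and from 58027614 to 58030337 in GFP cells, 2724 bases that scored 3025. Both were thus present in GFP cells and wider in Cre cells, 1.75-fold and 1.62-fold.

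H3Ac peaks at the same 2 places spanned 3754 and 4397 bases in Cre cells, each with a score of 3100, and 2441 and 3109 bases in GFP cells, with scores of 1587 and 2448. Other H3Ac peaks in the window were found in 1 list only and were weak, from 57997020 and from 58024468 in Cre cells with scores of 140.6 and 82.47, and from 58038962 in GFP cells with 86.32. A GFP-only H3K27me3 peak with a score of 228.8, from 58008522 to 58010649, lay 1.68 kb from the first GFP H3K4me3 peak, on its low-coordinate side. In the list of 11011 GFP-only H3K27me3 peaks, 320 scored at least as high. Weaker H3K27me3 peaks near the other edge of the window scored 71.77 in Cre and 85.83 in GFP cells.

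The Gbp2 window likewise had its main H3K4me3 peaks in both lists. Gbp2 is a guanylate-binding protein, a larger GTPase that is recruited to pathogen vacuoles, and in RefSeq order on GRCm38.p6 it closes the row Gbp5, Gbp7, Gbp3, Gbp2b, Gbp2, all on the + strand. The 3 shared peaks spanned 3758, 3842 and 3089 bases in Cre cells, from 142191969, 142222485 and 142282579, each with a score of 3100. Their GFP counterparts spanned 2351, 1805 and 2155 bases, with scores of 3100, 1395 and 1981. All 3 were wider in the Cre list, by 1.60-fold, 2.13-fold and 1.43-fold.

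A 4th H3K4me3 peak in the Gbp2 window, from 142159161 to 142161288 with a score of 732.5, was found in Cre cells only. H3Ac was present there in both lists, 2259 bases with a score of 613.0 in Cre cells and 1517 bases with a score of 162.6 in GFP cells. H3Ac at the 3 shared places scored 2797, 3100 and 3100 in Cre cells, and 1090, 1321 and 3227 in GFP cells. At the third the GFP H3Ac peak was the wider one, 3328 bases in Cre and 3547 bases in GFP cells. The GFP-only H3K4me3 peak, from 142348980 to 142349749 with a score of 63.63, lay at the high-coordinate edge of the window. The H3Ac peaks found in 1 list only scored 57.5 in Cre and 56.68 in GFP cells.

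Taking the windows side by side, 6 of the 8 H3K4me3 peaks in both lists were widened at 1 end in Cre cells. Of the 8 pairs, 6 reached at least 1000 bases further at the high-coordinate end in Cre cells, by 1017 to 2831 bases, where 1.09% of all 17237 pairs did. None of the 8 reached 1000 bases further at the low-coordinate end, where 0.946% of all pairs did. At that end the Cre peaks of these 6 pairs differed from the GFP peaks by -83 to 306 bases. Over all 17237 pairs, 339 reached at least 1000 bases further at 1 end only and 6 at both ends. Widening at a single end is thus not particular to the windows. The 2 pairs that were not longer were those of the Ifi47 and Tgtp1 window. In GRCm38.p6, Igtp, Irgm2, Ifi47 and the 5 Gbp genes named above lie on the + strand and Tgtp1 on the - strand, and the strand of Iigp1 was not used here. No peak was assigned to a gene, and whether the end that widened goes with the strand was not tested. The direction was looked at after the values had been seen.

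The widths come from the lists that chose the windows and are set beside those of all pairs as a description. The Cre peak was at least 1.5 times as wide in 5 of the 8 H3K4me3 pairs, where 7.65% of all pairs passed that ratio, and the median ratio was 1.61 in the windows and 1.07 over all pairs. Among the 4869 pairs whose Cre peak scored at least 3100, as 6 of the 8 did, 2.94% passed the ratio of 1.5, and 1.93% reached 1000 bases further at the high and 1.7% at the low end. Over the whole lists H3K4me3 peaks had a median width of 1606 bases in Cre and 1375.5 bases in GFP cells, and the part of this in the widening was not tested. Scores were also higher over the whole Cre H3K4me3 list, with a median of 886.9, where the GFP list had 564.7. A score of at least 3100 was given to 26.3% of all Cre and 19.2% of all GFP H3K4me3 peaks. For H3Ac the Cre peak was at least 1.5 times as wide in 4 of 18 pairs, where 4.5% of all pairs passed, and the median ratio was 1.00. Of the 18 H3Ac pairs 5 reached 1000 bases further at the high end and none at the low end, where 0.764% and 0.741% of all pairs did.

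**Figure D4:**
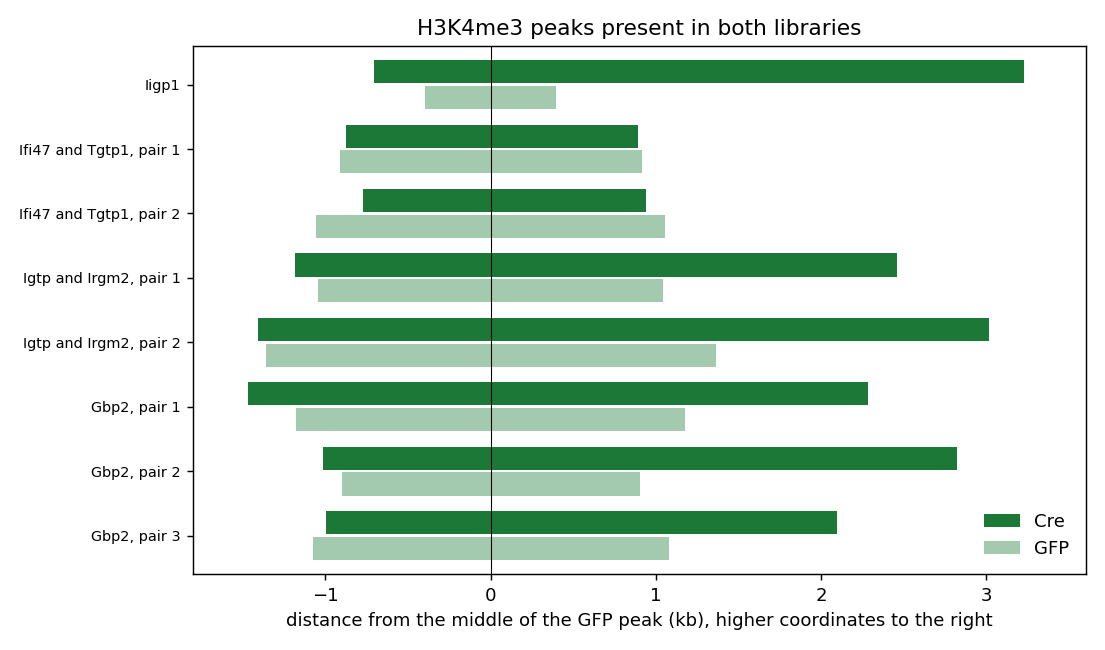
Extent of the 8 H3K4me3 peaks present in both lists, Cre (dark) above GFP (pale), in kb from the middle of the GFP peak. In 6 pairs the Cre peak runs 1017 to 2831 bases further to the right, and in the Ifi47 and Tgtp1 pairs it does not.

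**Figure D5:**
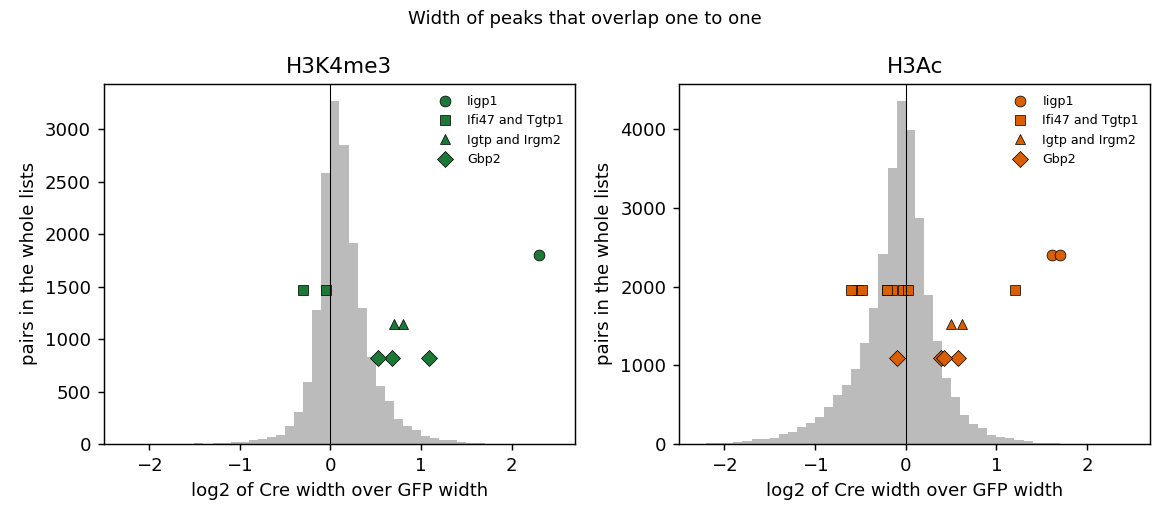
Log2 of Cre width over GFP width for all one-to-one pairs (grey bars, counts on the vertical axis) with the pairs of the windows as symbols whose height has no meaning. For H3K4me3 the Iigp1, Gbp2, Igtp and Irgm2 symbols lie right of the bulk, and for H3Ac most Ifi47 and Tgtp1 symbols lie within it.

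H3K4me3 and H3Ac mostly coincided, in the windows as over the whole lists. H3Ac of the same list overlapped 16 of the 18 Cre and 8 of the 9 GFP H3K4me3 peaks, where 85.0% of all Cre and 80.1% of all GFP peaks had such an overlap. Of the 10 Cre-only H3K4me3 peaks, 8 overlapped Cre H3Ac, and 3 overlapped a GFP H3Ac peak, with GFP scores of 180.1, 91.45 and 162.6. A Cre-only H3Ac peak overlapped a Cre-only H3K4me3 peak at 6 of the 18 Cre H3K4me3 peaks, where 1.82% of all Cre H3K4me3 peaks had both. Of these 6, the peak from 48900161 to 48903155 also overlapped the GFP H3Ac peak that scored 91.45. The adjoining peaks from 48803558 and from 48804689 shared a Cre-only H3Ac peak. With peaks merged within 1000 bases the count in the windows was 4. Peaks found in Cre cells only were among the values that chose the windows, so that nothing is read from these counts. No GFP-only H3K4me3 peak in the windows overlapped a GFP-only H3Ac peak, where 0.311% of all GFP peaks did.

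Most H3K27me3 peaks of the windows lay in the Gbp2 window. None of the 18 Cre and 9 GFP H3K4me3 peaks overlapped H3K27me3 or H3K9me3 of the same list, where 13.1% of all Cre and 12.3% of all GFP H3K4me3 peaks overlapped H3K27me3, and 2.45% of all Cre and 4.65% of all GFP H3K4me3 peaks overlapped H3K9me3. With so few peaks, a count of 0 does not set the windows apart from the lists. The windows held 13 H3K27me3 peaks in each list, covering 18.4 kb in Cre cells and 16.6 kb in GFP cells. The ratio was 1.11, where the whole lists gave 1.06. Among peaks that scored at least 100 the order was the other way, with 10.3 kb in Cre against 13.3 kb in GFP cells. In each list 7 of the 13 had no counterpart, where 33.6% of all Cre and 30.5% of all GFP H3K27me3 peaks had none. In each list 10 of the 13 lay in the Gbp2 window, and the highest score, 527.7 in Cre and 297.1 in GFP cells, was that of a peak at its low-coordinate edge. The Iigp1 window held 2 weak ones in Cre and 1 in GFP cells, with scores of at most 129.7 in Cre and 107.4 in GFP cells. The Ifi47 and Tgtp1 window held no peak of either silencing mark in either list.

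H3K9me3 peaks were few in the windows. The whole lists held 3985 in Cre and 10885 in GFP cells, so that low counts do not set the windows apart. Over the whole lists the ratio of covered length, Cre over GFP, was 0.346. The Cre list held 2 weak peaks in the Iigp1 window, the first starting at 60446895 with a score of 58.0 and the second at 60460771 with 63.68. The GFP list held 1, with a score of 133.8, which reached 0.129 kb into the Gbp2 window. None had a counterpart, where 39.9% of all Cre and 81% of all GFP H3K9me3 peaks had none.

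Just outside the windows, the nearest H3K4me3 peak within 5 kb on each side of the Igtp and Irgm2 window was present in both lists. On the low side it scored 3100 in Cre and 3100 in GFP cells and spanned nearly the same bases, from 57984595 to 57986517 in Cre and from 57984582 to 57986543 in GFP cells. On the high side the scores were 95.69 in Cre and 57.75 in GFP cells. In each list only the nearest H3K4me3 peak on each side of a window was looked up. Those of them that were found in 1 list only lay beside the other 3 windows. In Cre cells they were 3.44 kb beyond the high edge of the Gbp2 window with a score of 72.78, 12.3 kb beyond its low edge with 52.35, and 28.7 kb beyond the high edge of the Iigp1 window with 69.48. In GFP cells they were 49.0 kb beyond the high edge of the Ifi47 and Tgtp1 window with a score of 189.9, 65.2 kb beyond its low edge with 82.56, and 40.6 kb beyond the high edge of the Iigp1 window with 60.05.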

How the data were processed

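The 8 peak lists were deposited by the authors, 1 per library, and groups were taken from the sample labels. The other 10 samples of the series were not analysed here. The submitters' processing notes name MACS 1.4.1, a peak caller, besides bedtools 2.16.2, SAMtools 0.1.18 and BWA, with NCBIM37 as build. Which control library served which list, and the filters, are not given in the sources used here. The deposited score per peak has no stated unit and was used only to rank or filter peaks within a list. Scores of both lists printed side by side are no measure of change. Read depth is unknown from these lists.

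A peak shared by both lists was one with at least 1 base in common. Positions are counted from 1. One-to-one pairs are peaks that overlap a single peak of the other list in both directions. Lengths were clipped to the windows. The text names all H3K4me3 peaks of the windows, all H3K4me3 and H3Ac peaks found in 1 list, and the leading others. Windows, genes and motif lists were chosen with earlier results of these data known. Alternatives were a score of at least 100, peaks merged within 1000 bases, overlap of 50%, equal numbers of top-scoring peaks, windows widened by 20 kb, no chromosome 18 window, and an ISRE 1 base longer. Overlap and pairing were tested on simulated data. Python 3.11.15, NumPy 2.4.6, SciPy 1.17.1, Biopython 1.88 and matplotlib 3.10.9 were used. Promoters came from RefSeq, GRCm38.p6.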

Additional observations from a re-analysis of the deposited data

How the results depend on the processing

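Of 67 values recomputed for 14 results, 59 stayed within 1.5 times the reported one and 8 did not. The alternatives for the median width ratio of H3K4me3 pairs and for the count of members with an ISRE were added after the data were seen. With a score of at least 100, GFP-only H3K4me3 peaks numbered 0, H3K27me3 covered 10.3 kb in Cre cells (13.3 kb in GFP cells) and H3K9me3 0 kb in Cre cells (0.129 kb in GFP cells), and the order of Cre and GFP cells was turned round for both marks. With windows widened by 20 kb, GFP-only H3Ac peaks numbered 5 and GFP H3K9me3 covered 1.17 kb. Without the chromosome 18 window, Cre-only H3K4me3 peaks numbered 5 and H3K9me3 covered 0 kb in Cre against 0.129 kb in GFP cells, which again turns that order round. The cause was not tested, beyond the removal of weak peaks or of a window by construction. Cre-only H3K4me3 peaks otherwise numbered 8 to 12 and the covered H3K4me3 ratio was 2.13 to 3.24. With an ISRE 1 base longer (a further C) 9 of 16 listed promoters matched, against 13, and 2 of 5 members, against 4. No paired analysis was possible because each mark had 1 library per condition.

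The lists do not show depth, so that a place without a peak is one where no peak passed the authors' threshold, not one without the mark. Many strong peaks share a score of exactly 3100, and how scores above it, up to 3233, arise is not stated. Peaks at 3100 and above therefore cannot be ranked among themselves.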
